A study of Mus musculus with 32 samples.

Results

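Rom1, Cdhr1, Pcare and Reep6 encode proteins that build or supply the photoreceptor outer segment, and they were followed in eye, brain and heart of sighted C3H mice. All probes annotated to these 4 symbols were taken, which gave 4 probes, 1 per gene, of 20794 probes and 9030 named genes on the array. The choice rested on gene function, made with earlier results of these data known. Each of 32 arrays of 2 colours compared RNA of a sample labelled C3H sighted with RNA pooled from 6 control males labelled C3H.pde6b-, which carry the retinal degeneration of the C3H strain. Of the 32, 12 were of eye, 12 of brain and 8 of heart. One set of control mice supplied the pools for brain and heart, and other mice supplied the eye pool. The series text speaks of 6 male animals and names the line C3H seh mutant, while the sample labels call the animals sighted; the labels state no age for the animals.

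The outer segment is a stack of membrane discs at the tip of the photoreceptor, held on a connecting cilium and renewed throughout life. Rods make up most photoreceptors of the mouse retina. Loss of the rod phosphodiesterase subunit Pde6b leads to rod death early in life and later to loss of cones. Rom1 encodes a tetraspanin of the disc rim, where it partners with peripherin 2. Cdhr1 encodes a photoreceptor cadherin at the sites where new discs form, and is also known from projection neurons of the olfactory bulb. Pcare encodes an actin-associated ciliary protein that takes part in the formation of new discs. Reep6 encodes a protein of the endoplasmic reticulum that serves membrane trafficking in rods.

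The promoters are shown because all 4 genes were higher in sighted eye, and shared regulation was not tested. RefSeq's promoter table (GRCm38.p6, 250 bases before to 50 after the annotated start) matched 3 of the 4 genes, and Reep6 was not matched. All 3 are written 5′ to 3′ on the gene's strand. Capitals mark matches, on either strand, to any of 4 motifs: TAATCC, the core bound by the photoreceptor factor CRX; TGCTGA, a half-site of the rod factor NRL; GGGCGG, the GC box; and TATAAA, the TATA box. Rom1 lies at chr19:8929307-8929606 on the minus strand, Cdhr1 at chr14:37098298-37098597 on the minus strand and Pcare at chr17:71752856-71753155 on the minus strand.
Rom1: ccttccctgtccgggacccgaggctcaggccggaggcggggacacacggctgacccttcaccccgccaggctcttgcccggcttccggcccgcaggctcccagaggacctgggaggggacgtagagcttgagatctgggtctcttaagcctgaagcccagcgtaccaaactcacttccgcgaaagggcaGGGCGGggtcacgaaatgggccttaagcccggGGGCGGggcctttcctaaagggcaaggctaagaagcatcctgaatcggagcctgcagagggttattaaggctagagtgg
Cdhr1: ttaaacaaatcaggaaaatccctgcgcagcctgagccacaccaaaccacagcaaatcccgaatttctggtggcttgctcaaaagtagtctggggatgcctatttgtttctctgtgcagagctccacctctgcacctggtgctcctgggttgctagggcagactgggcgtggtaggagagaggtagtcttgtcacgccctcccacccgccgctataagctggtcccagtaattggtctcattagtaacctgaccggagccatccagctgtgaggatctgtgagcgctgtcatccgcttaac
Pcare: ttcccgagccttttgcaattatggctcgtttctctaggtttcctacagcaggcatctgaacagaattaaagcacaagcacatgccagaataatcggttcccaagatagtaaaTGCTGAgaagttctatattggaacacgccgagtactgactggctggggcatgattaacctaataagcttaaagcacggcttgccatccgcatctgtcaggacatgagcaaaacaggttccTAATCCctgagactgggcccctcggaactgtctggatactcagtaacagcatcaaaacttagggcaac
The Pcare window held TAATCC from -18 to -13 and TGCTGA from -138 to -133, counted from the start with -1 as the base before it. The Rom1 window held GGGCGG from -61 to -56 and from -29 to -24. No match to these letters was found in the Cdhr1 window, which says only that they are absent from these 300 bases. Of 32851 promoter windows in the table, 7.06% held TAATCC, 19.5% held TGCTGA, 35.7% held GGGCGG and 13.6% held TATAAA. The GC content was 64.0% for Rom1, 54.0% for Cdhr1 and 46.7% for Pcare, against a median of 52.7% over all windows. A match describes letters in a window and is not evidence of binding.

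A value is a log2 ratio of sighted over control RNA, so 1 stands for a doubling. Neighbouring arrays that carried the dyes in opposite order were averaged into 1 replicate, giving 6 replicates in eye, 6 in brain and 4 in heart. Which arrays came from 1 animal is not labelled, so a p-value reflects only how far these samples scatter, part of which may be technical, and the control side is 1 pool per organ. The direction of the ratio is likely, not stated. It was read from 5 rod phototransduction genes without the 4 genes described here. As deposited, their median ranged from 1.83 to 2.22 on the 6 eye arrays that had sighted RNA in Cy5, and from -2.26 to -1.31 on the 6 that had it in Cy3. The share of missing values was at most 5.10% on eye arrays and 5.05% on brain arrays, but reached 61.6% on heart array 7. The values are ratios with no signal levels, so tissue identity and brightness over background were not checked. Precision is limited by how many arrays there are.

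In eye all 4 genes were far higher in sighted than in control samples. Rom1 was 17.6-fold higher, Cdhr1 14.7-fold, Pcare 18.4-fold and Reep6 23.8-fold. Each was higher on 12 of 12 arrays and in 6 of 6 replicates, and no array of any of the 4 came near 0. In whole-eye RNA fewer rods and less RNA per rod cannot be told apart. Of all genes tested in eye, 26.7% were called in either direction, 15.8% higher and 10.9% lower, shares that would swap with the ratio turned, so a call alone was common there.

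**Figure D1:**
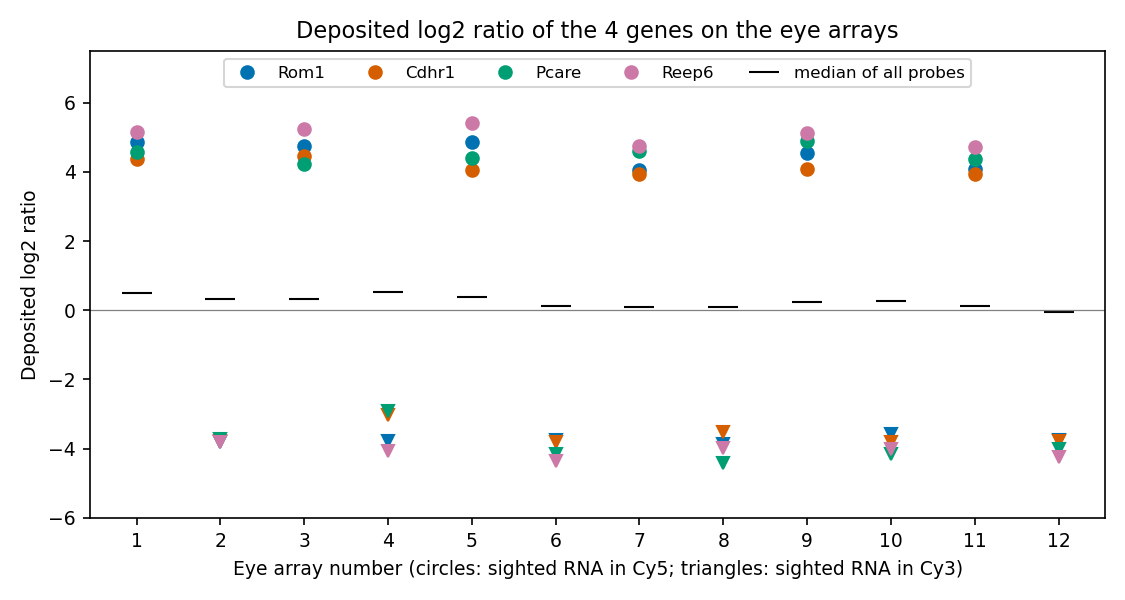
Deposited log2 ratio (vertical axis) of the 4 genes on each of the 12 eye arrays (horizontal axis), with circles where sighted RNA carried Cy5, triangles where it carried Cy3, and a black dash at the median of all probes of the array. The sign of all 4 genes turns with the dye, with circles between 3.95 and 5.42 and triangles between -4.41 and -2.92.

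Rom1, the disc rim tetraspanin, had eye replicates from 3.91 to 4.34 with a median of 4.16. Its mean was 4.14 ± 0.19 (SD, n = 6), with a 95% interval of 3.96 to 4.32 (15.6 to 20.0-fold) and a limma adjusted p of 2.3e-08. Replicates 4, 5 and 6 lay at 3.96, 4.06 and 3.91, below 4.34, 4.26 and 4.31 in the other 3. With sighted RNA in Cy5 the 6 arrays spanned 4.05 to 4.87, and with sighted RNA in Cy3 they spanned 3.56 to 3.88. With every array centred on its median the 2 orientations overlapped, at 3.945 to 4.461 and 3.676 to 4.311.

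Cdhr1, the disc-forming cadherin, had the smallest mean and the smallest spread of the 4. Its eye replicates ran from 3.74 to 4.08 with a median of 3.90, a mean of 3.88 ± 0.13 (SD, n = 6) and a limma adjusted p of 1.15e-08. The 95% interval was 3.73 to 4.03, or 13.3 to 16.4-fold. One array stood low: array 4, with sighted RNA in Cy3, gave 3.02, against 3.52 to 3.82 on the other 5 arrays of that orientation. With every array centred on its median, array 4 gave 3.555, beside 3.609 to 4.106 on those 5.

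Pcare, the actin-associated ciliary gene, varied most among the 4. Its eye replicates ran from 3.57 to 4.53 with a median of 4.23, a mean of 4.20 ± 0.35 (SD, n = 6) and a limma adjusted p of 2.15e-07. The 95% interval was 3.92 to 4.48, or 15.1 to 22.3-fold. Replicate 2 gave the lowest value. It holds array 4, on which Pcare had 2.92, against 3.72 to 4.41 on the other arrays with sighted RNA in Cy3. Array 4 also had the highest array median of the eye arrays, at 0.54. With every array centred on its median, Pcare had 3.453 on array 4, against 3.952 to 4.501 on the others of that orientation. The part of the array median in the low values of array 4 was not tested.

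Reep6, the trafficking gene of the endoplasmic reticulum, rose most. Its eye replicates ran from 4.36 to 4.89 with a median of 4.53, a mean of 4.57 ± 0.19 (SD, n = 6) and a limma adjusted p of 1.15e-08. The 95% interval was 4.39 to 4.75, or 21.0 to 26.9-fold. On arrays with sighted RNA in Cy5 it reached 4.71 to 5.42, and on arrays with sighted RNA in Cy3 it reached 3.81 to 4.37. With every array centred on its median these ranges overlapped, at 4.58 to 5.028 and 4.074 to 4.598.

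The 4 genes took adjacent places among the named genes tested in eye. Of 8564 named genes ranked by log2 ratio, Reep6 came 6, Pcare 7, Rom1 8 and Cdhr1 9, below Guca1b, Esrrb, Sag, Nxnl2 and Cngb1. Over all 15877 genes, unnamed probes included, 12 had a log2 ratio at least as high as Cdhr1, or 0.0756%. With the ratio turned these places would count from the lowest gene up. No gene lay as far below 0 as Cdhr1 lay above it, the lowest being at -2.67. Guca1b and Sag also served to read the direction. These places describe the genes and are no test, since they were chosen with such results known.

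**Figure D2:**
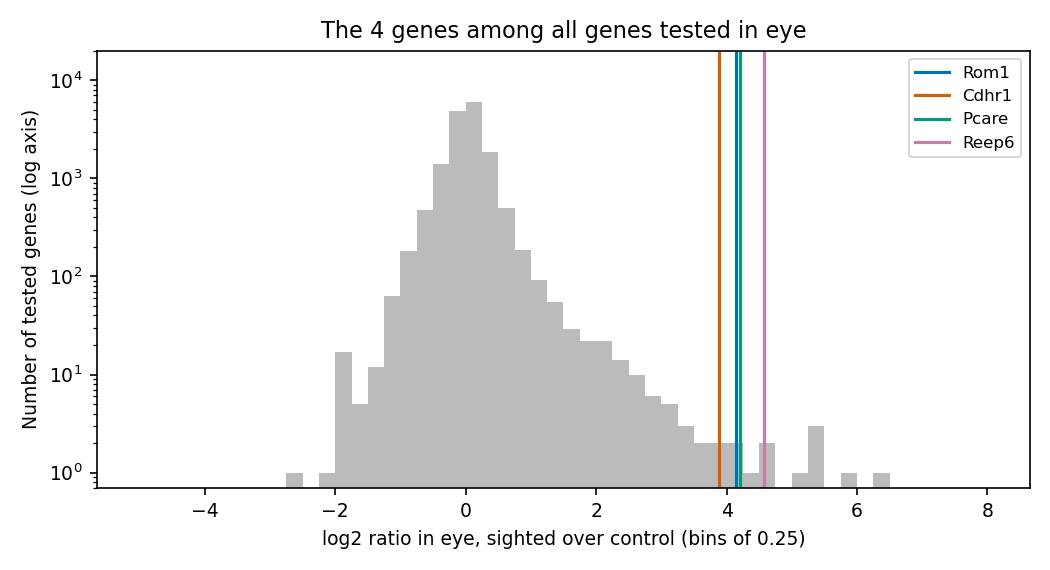
Number of genes tested in eye (vertical log axis) by log2 ratio of sighted over control (horizontal axis, bins of 0.25), with a coloured line at the mean of each of the 4 genes. Most genes lie near the median of 0.03, and the lines, from 3.88 to 4.57, stand in the sparse right tail.

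Differences among the 4 were small beside their distance from 0. They were compared over the 6 eye replicates with a two-sided exact sign-flip permutation test, adjusted over 6 pairs. Reep6 exceeded Cdhr1 by 0.69 (95% interval 0.47 to 0.91) and Rom1 by 0.43 (0.26 to 0.60), in 6 of 6 replicates each. Rom1 exceeded Cdhr1 by 0.26 (0.07 to 0.44), also in 6 of 6 replicates. Each of these 3 pairs had an exact p of 0.03125, the smallest that 6 replicates allow, and an adjusted p of 0.0625, so none passed. Pcare exceeded Cdhr1 by 0.32 in 5 of 6 replicates, with a 95% interval from -0.04 to 0.67, and was below Reep6 by 0.37 in 5 of 6 replicates, with an interval from -0.09 to 0.83. Each had an exact permutation p of 0.09375 and an adjusted p of 0.1125. Rom1 and Pcare differed by -0.06 with an interval of -0.55 to 0.43 (exact permutation p 0.75), and the sign turned to 0.03 without replicate 4 and to 0.02 without replicate 5. In the order Reep6, Pcare, Rom1 and Cdhr1, no neighbours differed past the adjusted threshold.

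The dye left its own mark on all 4. The mean of both orientations without turning the sign cancels the difference between sighted and control RNA and keeps the dye effect. In eye this dye component was 0.38 ± 0.20 for Rom1, 0.26 ± 0.24 for Cdhr1, 0.30 ± 0.22 for Pcare and 0.49 ± 0.16 for Reep6 (SD, n = 6 each), against a median of 0.25 over all genes. Limma called it for 4 of 4 genes (adjusted p from 0.00764 to 0.0496), as it did for 46.4% of all genes. With every array centred on its median, Reep6 alone kept the call, at 0.25 (limma adjusted p 0.0385), where 2.56% of all genes were called. The gap between orientations was 0.77 for Rom1, 0.52 for Cdhr1, 0.61 for Pcare and 0.99 for Reep6. After centring it was 0.28, 0.03, 0.12 and 0.50. The sighted over control means hardly moved with centring, at 4.11, 3.85, 4.17 and 4.54 in the same order.

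Brain gave a comparison outside the retina. Limma called 0 of the 4 genes there, with 1 at an unadjusted p under 0.05, and 0.00621% of all genes (1 of 16114, with 663 at an unadjusted p under 0.05). The lowest eye replicate of any of the 4 was 3.57, and the highest brain replicate of any of them was 1.14. How many of all genes had eye and brain replicates apart was not counted.

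The ratios of Rom1 and Pcare lay tightly around 0 in brain. Rom1 had replicates from -0.07 to 0.13 with a median of 0.03 and a mean of 0.04 ± 0.08 (SD, n = 6). Its 95% interval of -0.09 to 0.16 spans 0.940 to 1.12-fold (limma adjusted p 0.96). This bounds the measured ratio only, since brightness over background was not checked. Pcare had replicates from -0.10 to 0.28 with a median of 0.06 and a mean of 0.07 ± 0.13 (SD, n = 6), with an interval of -0.08 to 0.22 (limma adjusted p 0.959). In both genes the orientations opposed each other: Rom1 averaged -0.20 with sighted RNA in Cy5 and 0.27 with sighted RNA in Cy3, and Pcare -0.14 and 0.28. The dye component in brain was -0.24 for Rom1 and -0.21 for Pcare, neither called, 0.22 for Cdhr1, not called, and 0.49 for Reep6 (limma adjusted p 0.0366), a call lost without replicate 1, 2, 4 or 5 (0.36 to 0.51, adjusted p 0.0535 to 0.0997). That made 1 of 4 genes called where 18.8% of all genes were. With arrays centred, Rom1 at -0.29 and Pcare at -0.27 passed, and Reep6 at 0.43 did not (limma adjusted p 0.035, 0.0428 and 0.0635). The share of all genes called in brain after centring was not counted, so these calls have no background beside them.

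Cdhr1 and Reep6 were less certain in brain. Cdhr1 had replicates from -2.90 to 1.14 with a median of -0.22 and a mean of -0.46 ± 1.40 (SD, n = 6), a spread above that of 99.9% of the genes tested. Its 95% interval of -1.51 to 0.60 spans 0.350 to 1.52-fold (limma adjusted p 0.959). The low replicate was replicate 6, in which both arrays were low, at -2.11 and -3.69, and in replicate 5 both were high, at 1.88 and 0.41. Without replicate 6 the mean was 0.03. Reep6 had replicates from -0.92 to 0.06 with a median of -0.27 and a mean of -0.34 ± 0.36 (SD, n = 5), lower in 4 of 5 replicates, since brain array 5 gave no value. Its unadjusted p of 0.0383 became a limma adjusted p of 0.959, and with sighted RNA in Cy5 alone its mean was 0.15.

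Heart values were sparse. Rom1 and Cdhr1 had a value on 6 of 8 arrays and in 2 of 4 replicates, too few for the test. The 2 Rom1 replicates were 0.03 and 0.43, and the 2 Cdhr1 replicates were -0.10 and 0.41. Single arrays of Rom1 ranged from -1.29 to 2.15 and those of Cdhr1 from -1.67 to 2.08, on both sides of 0 in each. Pcare had -0.33, -0.27 and -0.05 in its 3 replicates, a mean of -0.22 ± 0.15 (SD, n = 3) and a limma adjusted p of 0.668. Reep6 had -0.44, 0.23 and 1.32, a mean of 0.37 ± 0.89 (SD, n = 3) and a limma adjusted p of 0.724. The highest of these rests on heart array 7, the array with most missing values, which gave Reep6 3.45. Without replicate 4, which holds that array, its mean was -0.11. Limma called 0 of the 2 genes tested, 0 of them at an unadjusted p under 0.05, and 0% of 12796 genes, of which 1021 had an unadjusted p under 0.05.

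**Figure D3:**
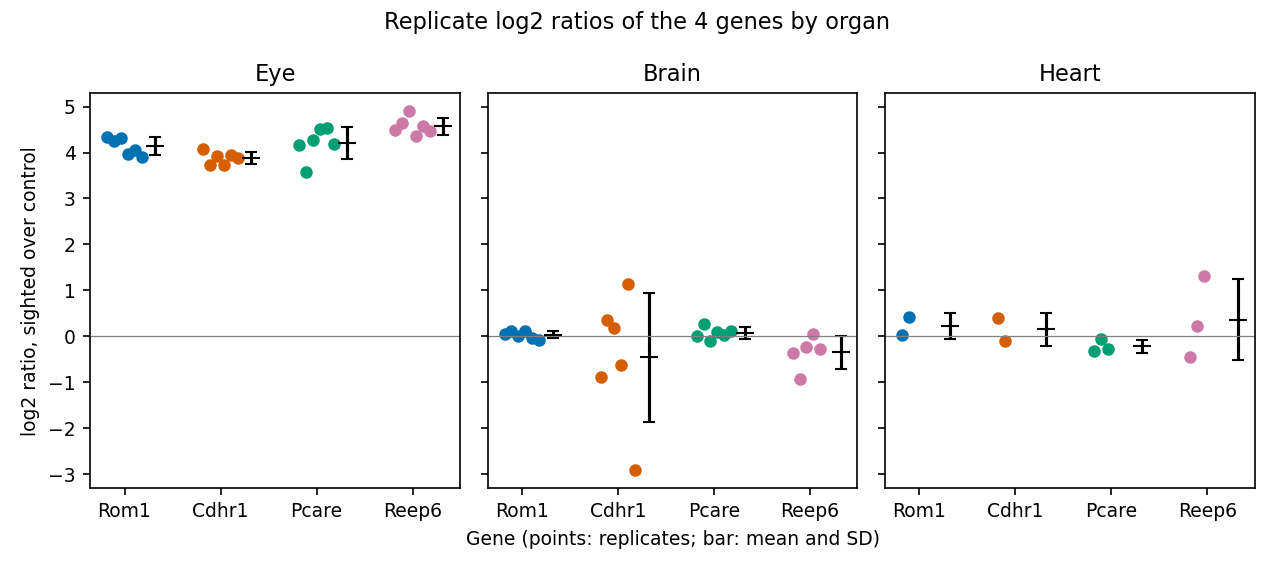
Log2 ratio of sighted over control (vertical axis) for each replicate of the 4 genes in eye, brain and heart, with a bar at the mean and whiskers of 1 SD. Eye replicates lie between 3.57 and 4.89, while those of brain and heart lie between -2.90 and 1.32.

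The difference between organs was tested directly. Each organ had 1 control pool, that of eye from other mice, so organ and control pool cannot be told apart here. Eye exceeded brain by 4.13 for Pcare (95% interval 3.83 to 4.43, limma adjusted p 3.53e-12) and by 4.91 for Reep6 (4.39 to 5.44, adjusted p 1.67e-09), in 1 limma fit of all organs in which 12.3% of genes were called. In the same fit eye exceeded heart by 4.42 for Pcare (4.05 to 4.79, limma adjusted p 3.44e-11) and by 4.20 for Reep6 (3.59 to 4.82, adjusted p 9.84e-08), where 22.4% of genes were called. That fit shares 1 spread over the organs. In limma fits with each organ's own spread, the adjusted p for eye minus heart was 6.16e-06 for Pcare and 0.00572 for Reep6. There 544 of 12533 genes were called. Rom1 and Cdhr1 could not enter any fit of all organs for want of heart replicates. In a limma fit of eye and brain alone, which called 17.4% of genes, eye exceeded brain by 4.10 for Rom1 (3.90 to 4.30, adjusted p 2.9e-12) and by 4.34 for Cdhr1 (3.26 to 5.42, adjusted p 4.13e-05). Brain and heart did not differ past the threshold, at 0.29 for Pcare (limma adjusted p 0.355) and -0.71 for Reep6 (adjusted p 0.186), where 2.68% of genes were called. For Reep6 that last difference passed without heart replicate 1, at -1.12 (limma adjusted p 0.0279). In that setting 925 of 12973 genes were called, against 336 of 12533 with every replicate kept. The heart mean of Reep6 then rested on replicates 2 and 4, at 0.23 and 1.32. Heart replicate 4 holds the array with most missing values, and without it the difference was -0.24 (limma adjusted p 0.577).

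Other genes of the outer segment and its supply were read from 5 lists written with earlier results known. Without the 4 genes, 42 of 94 list genes were on the array and tested in eye. Of these 27 were higher, 1 was lower and 14 were not called, with a median of 0.49 against 0.03 over all genes and 15.8% of all genes called higher. In brain 0 of 42 and in heart 0 of 36 were called.

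Of the disc and plasma membrane list, 6 of 6 genes tested were higher in eye, the 3 members Rom1, Cdhr1 and Pcare among them. Cngb1, a subunit of the rod cyclic nucleotide channel, had 5.10 ± 0.36 (SD, n = 6). Fscn2, a photoreceptor actin-bundling protein, had 2.74 ± 0.54 (SD, n = 5). Prom1, a membrane protein of nascent discs, had 1.97 ± 0.16 (SD, n = 6). Prph2, the partner of Rom1, was not matched by a probe name.

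Of the membrane and protein traffic list, 15 of 20 genes were higher, Reep6 included, 1 was lower and 4 were not called. Unc119, a carrier of lipid-modified transducin, had 2.86 ± 0.14, Rd3, a regulator of guanylate cyclase traffic, 2.39 ± 0.18, and Bbs5, a subunit of the ciliary BBSome coat, 2.15 ± 0.11 (SD, n = 6 each). Mkks had 0.45 and Rab8a 0.13, and neither passed. The probes of Mkks had 0.54 (n = 6) and -0.08 (n = 3). The lower gene was Rab11a, a recycling endosome GTPase, at -0.41 ± 0.22 (SD, n = 6), named after its value was seen. Ift172 and Ift52, called higher at 0.30 and 0.20, had -0.19 and -0.05 on arrays with sighted RNA in Cy3 alone.

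Of the connecting cilium list, 7 of 15 genes were higher and 8 were not called. Rpgrip1, a scaffold of the connecting cilium, had 2.78 ± 0.16 (SD, n = 6), with 3 of its 4 probes at 3.38 to 3.48 and the other at 0.80. Fam161a, a ciliary microtubule protein, had 2.42 ± 0.27, with probes at 3.05 and 1.80. Mak, a kinase of the photoreceptor axoneme, had 1.63 ± 0.66, and Tmem67, a transition zone protein, 1.00 ± 0.13 (SD, n = 6 each). Cetn2 had 0.20 and Poc1b 0.18, and neither passed. Of 3 inner segment genes only Atp1b2, a sodium pump subunit, was higher, at 1.23 ± 0.17 (SD, n = 6), while Ckmt1 had -0.12 and Ckb 0.06. Both transcription factors on the array were higher, Esrrb at 5.44 ± 0.46 and Mef2d at 0.53 ± 0.16 (SD, n = 6 each), the latter with probes at 0.91 and 0.15. In brain the list genes with the smallest p were Atp1b2 at -0.20 and Pde6d at 0.17, and in heart Atp1b2 at -0.34 and Rd3 at -0.38, with limma adjusted p of 0.959 in brain and 0.58 and 0.581 in heart.

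Markers of other cells of the eye moved far less than the 4 genes, in either direction. Of cone markers 3 of 3 were higher, led by Thrb at 0.48, while Gnb3 at 0.33 and Gngt2 at 0.26 had -0.03 and -0.04 with sighted RNA in Cy3 alone. Of bipolar markers 0 of 4 were called, with a range of -0.11 to 0.17. Of amacrine and horizontal markers 1 of 8 was higher and 2 were lower, with Pax6 at -0.34 (0.32 in Cy5 alone) and Calb1 at 0.26 (-0.01 in Cy3 alone), and of ganglion markers 1 of 7 was lower, Rbpms at -0.48. Of Mueller glia markers 1 of 11 was higher and 3 were lower, with Apoe at -0.51, and of pigment epithelium markers 1 of 3 was higher, Rdh5 at 0.26 (-0.01 in Cy3 alone). Lens markers were higher in 9 of 10 and lower in 1, from -0.55 to 1.34, with Crybb2 highest. Cornea and surface epithelium markers were lower in 8 of 8, from -1.36 (Krt12) to -0.81, and skeletal muscle markers were lower in 9 of 9, from -1.18 (Actn3) to -0.52. The part of these shifts in tissue makeup in the values of the 4 genes was not tested.

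**Figure D4:**
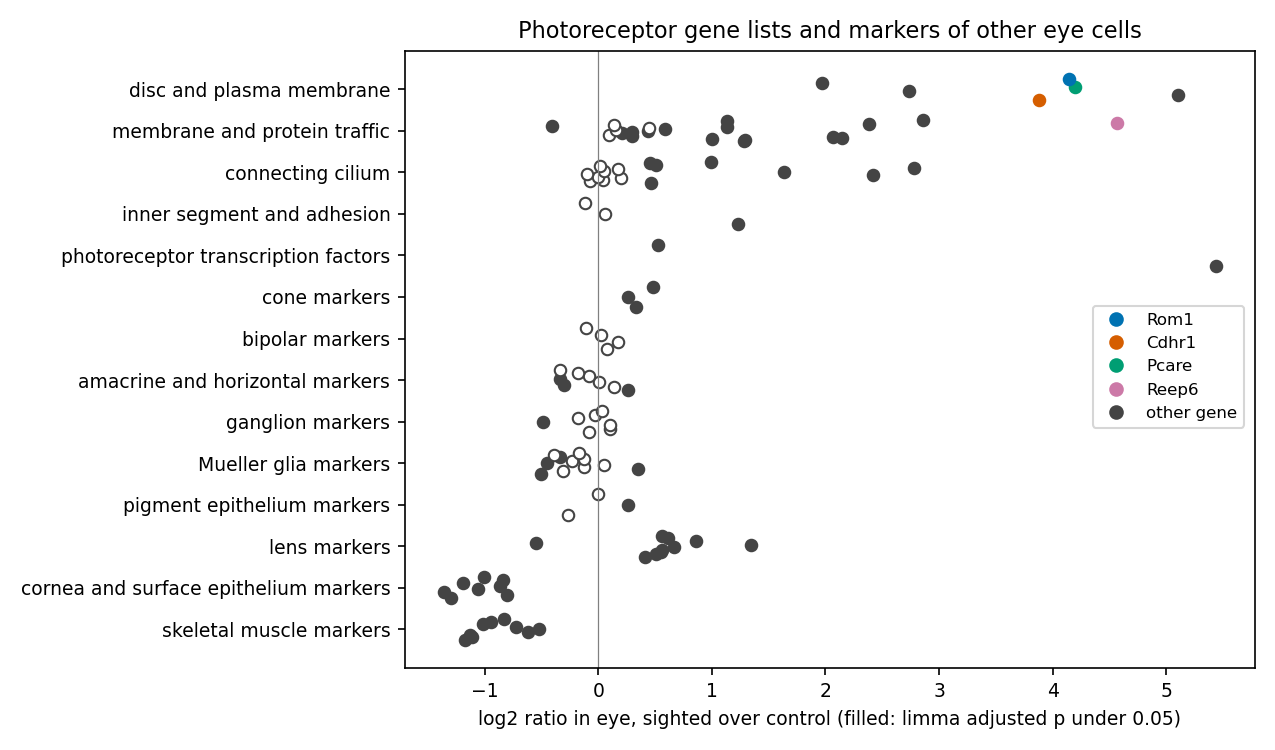
Log2 ratio in eye (horizontal axis) of each tested gene of 5 photoreceptor lists and 9 marker lists of cones and other eye cells (rows), filled where the limma adjusted p was under 0.05. The 4 coloured genes lie between 3.88 and 4.57, and no cone, inner retina, glia, lens, cornea or muscle marker lies above 1.34.

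Genes with the most similar pattern were found by root mean square distance of the log2 ratio over the replicates of all organs in which the gene was measured. Candidates had to be measured in every one of those replicates, which left out those of the 4 genes that missed one; their distances follow separately. For Rom1, over 14 replicates, the nearest candidate was Pcare at 0.331, followed by Cplx4 (0.635), Ei24 (0.719), Cngb1 (0.729) and Nxnl2 (0.816). For Pcare, over 15 replicates, the nearest candidates were Cplx4 (0.596), Cngb1 (0.704), Nxnl2 (0.764), Ei24 (0.780) and Sag (0.783). For Cdhr1, whose brain values spread widely, the distances to candidates were larger, from 0.971 for Pcare through Vtn, Cplx4 and Unc119 to 1.15 for Ei24. For Reep6 the nearest candidates were Ei24 at 1.13, Rpgrip1 (1.25), Ccdc126 (1.25), Guca1b (1.29) and Susd3 (1.45), among 4139 measured in the same 14 replicates. Those replicates include heart replicate 4, which holds the array with most missing values, while 7056 genes were candidates for Rom1. Over the replicates a pair shared, Rom1 and Reep6 lay at 0.476 (13 replicates), Pcare and Reep6 at 0.533 (13), Rom1 and Cdhr1 at 0.940 (13) and Cdhr1 and Reep6 at 1.05 (12). These are nearer than several of the candidates named, but over fewer replicates. Over the 6 eye replicates alone the nearest gene to Rom1 was Cdhr1 (0.303), the nearest to Pcare was Rom1 (0.429), and the nearest to Reep6 was Rom1 (0.456).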

How the data were processed

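The authors deposited 1 table of log2 ratios of the 2 dyes within an array. Per the labels' protocols, cDNA made from total RNA received Cy3 or Cy5 by indirect labelling. No label names the scanner, the background correction or the normalization, and array medians from -0.061 to 0.535 show that not all arrays were centred. Brain array 3 has Cy5 as the label of either channel; its sighted RNA was taken as Cy5. A repeated top value above 15 on an array was set to missing (4170 values). Of 20794 probes, 12771 carried 1 gene symbol, 0 several and 8023 none. Symbols came from the platform annotation, and probes of a gene were averaged.

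The sign was turned on arrays with the sighted RNA in Cy3, and a replicate needed both its arrays. A gene could miss 1 replicate. The pairing of consecutive arrays is a reading of the array numbers. Arrays of such a pair correlated at 0.070 in eye, 0.0053 in brain and -0.014 in heart. Arrays of different pairs correlated at -0.014, -0.0011 and 0.0043 in the same order. In brain and heart these values show no sign of the pairing. Limma 3.58.1 (R 4.3.3) tested the mean against 0 over all genes of an organ, two-sided, with Benjamini-Hochberg adjustment at 0.05. Organ differences used 1 limma fit of 3 organs, and the fit of eye and brain alone was added after seeing the data. The tests were tried on simulated data. The members and lists were chosen with earlier results of these data known. Named genes were the members; per photoreceptor list up to 4 called genes of largest change and 2 others by smallest p; per marker list the called gene of largest change; 2 list genes by smallest p in brain and heart; and the 5 nearest genes in pattern. Rab11a, Ift172, Ift52, Gnb3, Gngt2 and Calb1 lie outside this rule and were named after their values were seen. All of these but Rab11a were named because 1 dye orientation turned their sign. Fscn2 and Prom1, also called in the disc and plasma membrane list, lie outside the rule too. Cngb1, Pcare, Rom1 and Cdhr1 were the 4 of largest change in that list. As no member was measured in every replicate, that distance used the replicates each member has, a choice made after seeing the data. The nearest genes in eye alone were added in the same way. Alternatives were single arrays with or without the pair as a block, centring, scaling, top values kept, stricter completeness, single probes, robust moderation, 1 dye orientation, a filter on spread and each replicate left out.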

Additional observations from a re-analysis of the deposited data

Results flagged for a closer look

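The change between sighted and control RNA differed between organs for every one of the 4 genes, by a test of the difference itself. Eye exceeded brain by 4.10 for Rom1 and 4.34 for Cdhr1 in the fit of eye and brain alone, and by 4.13 for Pcare and 4.91 for Reep6 in the fit of all organs. Eye exceeded heart by 4.42 for Pcare and by 4.20 for Reep6. No replicate of the 4 genes in eye or brain stood apart from its group by Dixon's 95% criterion, in 8 groups examined, and heart groups held too few replicates.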

How the results depend on the processing

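The eye values of the 4 genes kept their direction and their call under every alternative that gave one, from 3.62 to 5.06 with a single dye orientation and from 3.78 to 4.45 with arrays centred and scaled. Leaving out the genes of most spread removes Pcare in eye, Cdhr1 and Reep6 in brain and Reep6 in heart, and these have no value there. Eye minus brain and eye minus heart kept their calls under the alternatives run. With the replicate block, which pairs organs by number, eye minus brain was 4.13 for Pcare, 4.85 for Reep6, 4.10 for Rom1 and 4.34 for Cdhr1, and no call changed. Same-numbered replicates of different organs had correlations from -0.062 to 0.023. Arrays averaged into the same replicate correlated at 0.070 in eye, 0.0053 in brain and -0.014 in heart. As arrays read as a pair correlated as weakly in brain and heart, these values cannot decide whether the numbers pair organs.

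Between members, every array on its own passed Rom1 over Cdhr1 (0.26), Cdhr1 under Reep6 (-0.69), Rom1 under Reep6 (-0.43), Cdhr1 under Pcare (-0.32) and Pcare under Reep6 (-0.37), which may count colour flips as separate samples. Cy5 alone passed Rom1 over Cdhr1 (0.38), Cdhr1 under Reep6 (-0.92), Rom1 under Reep6 (-0.54) and Pcare under Reep6 (-0.56), and turned Rom1 minus Pcare to 0.018. Without single replicates Rom1 minus Pcare ranged from -0.21 to 0.035. With 5 replicates no pair can pass.

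The dye component in eye lost its call after centring for Rom1 (0.14), Cdhr1 (0.016) and Pcare (0.060). Without single replicates it ranged from 0.35 to 0.44 for Rom1, not called without replicate 1 or 3, from 0.17 to 0.30 for Cdhr1, called only without replicate 6, and from 0.24 to 0.35 for Pcare, called only without replicate 4 or 6. In heart that of Reep6, 0.61, ranged from -0.15 (without replicate 4) to 1.10 without single replicates.

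In brain, Cy5 alone turned Rom1 to -0.20, Pcare to -0.14 and Reep6 to 0.15. Cdhr1 ranged from -0.77 to 0.034 without single replicates. In heart, Cy5 alone turned Pcare to 0.10 and Cy3 alone turned Reep6 to -0.35. Reep6 ranged from -0.11 to 0.78 without single replicates, and had -0.32 with every array but the one of most missing values, an alternative added after seeing the data. Brain minus heart of Pcare turned to -0.24 with Cy5 alone, and that of Reep6 ranged from -1.12 to -0.24 without single replicates.

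Over all genes, limma called 4239 in eye, 2654 with every array on its own and 6580 with Cy5 alone. In brain it called 1, and 3 with every array on its own, 4 with the pair as a random block, 2 with scaled arrays, 0 with top values kept, 2 where every replicate was needed, 736 with Cy5 alone, 1327 with Cy3 alone, 8 without the genes of most spread and 0 to 1 without single replicates. In heart it called 0, and 56 without the genes of most spread. The photoreceptor lists, without the members, had 27 of 42 genes higher in eye, 17 with Cy3 alone and 33 with Cy5 alone, where the share of all genes called higher went from 15.8% to 3.39% and 37.2%.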
